A study of Mus musculus with 6 samples.

Results

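The enzymes that add or remove methyl groups on histone lysines were examined as a group of 46 genes, 26 methyltransferases, 19 demethylases and the reader Kmt2e, in mouse oligodendrocyte precursor cells after knockdown of Chd7. The genes were found by their symbol in the probe annotation of the array, and 43 of the 46 matched at least 1 of 48 probes. A total of 42 members were tested, of 17390 genes tested and 19320 genes with a probe. Kdm4d was above the detection limit on 1 of 3 Chd7 KD arrays and 1 of 3 Control arrays and was not tested, and Ash1l, Setdb2 and Suv39h1 were not analysed here.

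Oligodendrocyte precursor cells (OPCs) are the glial progenitors from which myelinating oligodendrocytes arise. The Chd7 KD group held OPCs infected with a retrovirus directed against Chd7 (n = 3), and the Control group held OPCs infected with a control retrovirus (n = 3). Both groups shared the mouse stock (Jcl:ICR), the stage (E15.5), the tissue (forebrain), the growth factors FGF2 and PDGF-AA and the time of harvest, 3 days after infection. The target sequence of the knockdown and the share of cells infected are not given in the sources used here, and only 1 knockdown virus is labelled, so a loss of Chd7 and other effects of that virus cannot be told apart.

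Methylation of histone lysines is written by methyltransferases, most of which carry a SET domain, and erased by demethylases, which are either flavin-dependent amine oxidases or JmjC-domain dioxygenases that need iron and 2-oxoglutarate. Methylation of H3K4, H3K36 and H3K79 is found at active promoters, enhancers and transcribed gene bodies. Trimethylation of H3K9, H3K27 and H4K20 is found in heterochromatin and at silent genes. Chd7 encodes an ATP-dependent nucleosome remodeller whose chromodomains can bind methylated H3K4. In the oligodendrocyte lineage, Chd7 is known for its cooperation with Sox10 at genes of myelination.

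Expression was read as log2 intensity on 6 one-colour arrays, 1 per sample. Intensities carried an added offset of 50 before the logarithm, so a signal with no excess over background lies near 5.64 and the changes of dim genes are understated. A gene was said to rise or fall where the Benjamini-Hochberg adjusted p of limma, taken over all 17390 genes, was below 0.05. Nothing in the labels ties the replicates to separate cultures, so the p-values cover the spread between these arrays, which can be technical, and having few arrays limits how precise each value is.

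Chd7 itself read 8.55, 8.44 and 8.48 in Chd7 KD replicates 1 to 3, against 9.44, 9.20 and 9.47 in Control replicates 1 to 3. No Chd7 KD array reached the Control range, and the mean was 54.3% of the Control level (log2 fold change -0.88, SE 0.0856, limma adjusted p = 0.0011). A second, dimmer Chd7 probe averaged 7.20 in Chd7 KD and 7.68 in Control, a log2 fold change of -0.48 (limma adjusted p = 0.00405 over all probes) and 71.5% of the Control level. All 7 OPC markers with a probe were above the detection limit on all 6 arrays, as were 16264 of the 19320 genes with a probe. Each array by itself had 87.0% to 89.8% of all probes above the limit. Of the 7 OPC markers, Pdgfra, Cspg4, Olig2, Sox10 and Lhfpl3 fell. The summed OPC marker intensity, less the offset, was 9364 to 10706 on the Chd7 KD arrays, against 12344 to 14587 on the Control arrays. Most of that sum was Olig1, which averaged 12.81 in Chd7 KD and 13.05 in Control, with overlapping groups, and did not pass (limma adjusted p = 0.246). Of 6 neuronal markers, Dcx and Map2 fell, with a sum of 386 to 536 in Chd7 KD and 594 to 712 in Control. Dcx, the brightest of the 6, weighed most in that sum. No tested marker of astrocytes, differentiated oligodendrocytes, microglia or endothelial cells and fibroblasts passed, and Tmem119, Itgam, Pecam1, Cldn5 and Dcn were not above the limit on every array. The astrocyte sum was 13615 to 14448 in Chd7 KD and 13729 to 14368 in Control. With the replicate number as a block, Olig1 and Tubb3 also fell, and Mog, Mobp, Gja1 and Syt1 rose (limma adjusted p up to 0.0386). Only the OPC and neuronal marker sums lay apart between the groups, and the sums of the other cell types overlapped. The part of marker levels in the results below was not tested. In such bulk samples, fewer cells of a type and less RNA per cell cannot be told apart. The second principal component (20.3% of the variance) parted replicate 1 of each group from the other arrays, so results are also given without them where that ends a call.

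Of the 42 tested members, 6 fell and 36 did not pass. Those that fell were the demethylases Kdm1a, Kdm2a, Kdm5b and Kdm4b and the methyltransferases Suv39h2 and Smyd2, which kept between 72.0% (Kdm1a) and 91.3% (Kdm4b) of the Control signal. These shares carry the offset, and in the authors' processed values without an offset they ran from 65.9% (Suv39h2) to 77.2% (Kdm4b). They were 14.3% of the members, and 5.13% of all genes tested fell. No member rose by limma, where 4.53% of all genes did. At an unadjusted limma p under 0.05, 12 members (28.6%) were lower, against 12.7% of all genes, and 1 (2.38%), the H3K79 methyltransferase Dot1l, was higher, against 12% of all genes. The 3 Chd7 KD arrays all lay below the 3 Control arrays for 13 members (31%), against 15.2% of all genes, and all above them for 3 members (7.14%), against 14.6%, which makes 16 members (38.1%) without overlap, against 29.9% of all genes.

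The log2 fold change was negative for 34 of the 42 members (81%), against 49% of all genes. Its median was -0.06 over the members and 0.0013 over all genes. The 18 tested demethylases had a median of -0.07 with 4 that fell and 17 negative values, and the 23 tested methyltransferases had a median of -0.03 with 2 that fell and 16 negative values. The difference between the demethylases and the methyltransferases was not tested. For 15 members the Control mean was under 1 log2 unit above the level set by the offset. In the same fit with the replicate number as a block, 7 members fell (16.7%, against 7.33% of all genes) and 1 rose (2.38%, against 7.33%), the additional ones being Kdm2b and Dot1l.

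**Figure D1:**
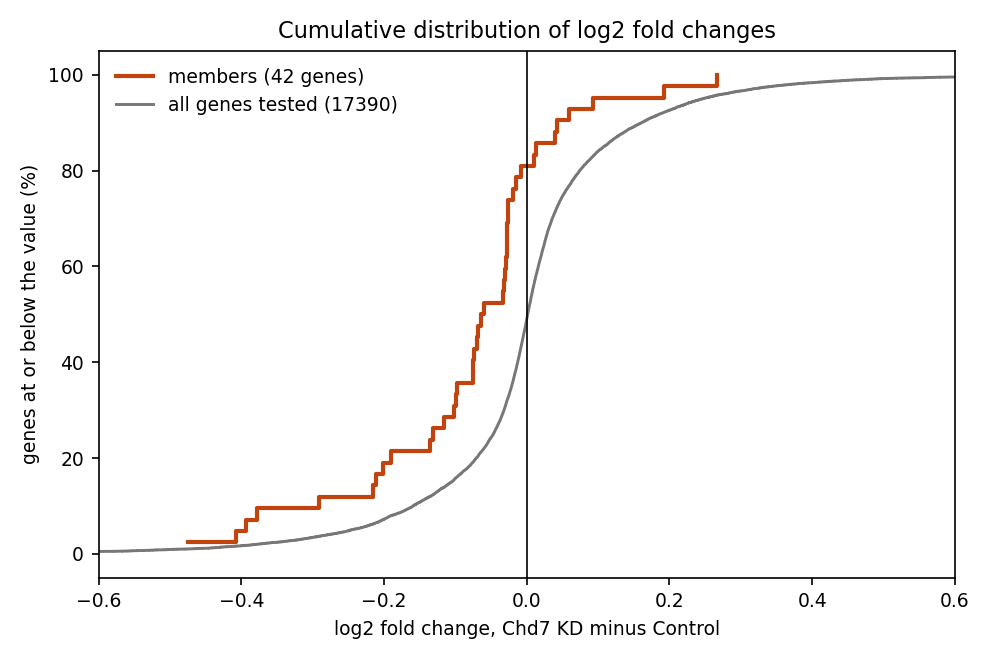
Cumulative distribution of the log2 fold change (horizontal axis, Chd7 KD minus Control) for the 42 tested members and for all 17390 genes tested, with the percentage of genes at or below each value on the vertical axis. The members' curve crosses 0 at 81% and the curve of all genes at 49%.

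The 5 H3K4 demethylases were all measured, and 2 of them, Kdm1a and Kdm5b, fell. Kdm1a (LSD1), the amine oxidase that removes mono- and dimethyl groups from H3K4, read 9.22, 9.26 and 9.32 in Chd7 KD replicates 1 to 3, against 9.70, 9.66 and 9.86 in Control. Each Chd7 KD array lay below each Control array. The means were 9.26 ± 0.051 in Chd7 KD and 9.74 ± 0.104 in Control (SD, n = 3 each), a log2 fold change of -0.47 (SE 0.0766, limma adjusted p = 0.00663), or 72.0% of the Control level. In the authors' processed values, which carry no offset, the share was 67.2%. Tests in those values had 16 added before the logarithm, so they were not free of an offset. Kdm1a, Kdm2a and Suv39h2 each passed with any 1 of the 6 arrays left out.

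Kdm5b (JARID1B), a JmjC enzyme that removes di- and trimethyl groups from H3K4, read 8.04, 7.98 and 7.91 in Chd7 KD, against 8.31, 8.14 and 8.36 in Control. The groups did not overlap, and the gap between the highest Chd7 KD array and the lowest Control array was narrow. The means were 7.98 ± 0.0666 in Chd7 KD and 8.27 ± 0.114 in Control (SD, n = 3 each), a log2 fold change of -0.29 (SE 0.0746, limma adjusted p = 0.0415). The call held without Control replicate 2 (0.0346) and was lost when any of the other 5 arrays was left out (0.0787 to 0.132) and without both arrays numbered 1 (0.107). It was also lost with median scaling (0.0657) and in the authors' values (0.073). Its paralogue Kdm5a had a log2 fold change of -0.20 (limma adjusted p = 0.0839), and its arrays did not overlap, at 7.07, 7.17 and 7.06 in Chd7 KD and 7.41, 7.24 and 7.25 in Control. Kdm1b, the second amine oxidase, and Kdm5c, the X-linked member of the Kdm5 family, had log2 fold changes of -0.03 and -0.02 and did not pass. Both were dim, with Control means of 6.35 and 5.84, under 1 log2 unit above the level set by the offset, which understates their changes.

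The base sequence just upstream of the transcription start is shown for the members that fell and have an entry among the RefSeq promoters (GRCm38.p6), each as the 250 bases before the start on the gene's own strand, so that their base composition can be seen. The windows are chr4:136602724-136602973 (minus strand) for Kdm1a, chr1:134559928-134560177 (plus strand) for Kdm5b, chr2:3474987-3475236 (minus strand) for Suv39h2 and chr1:189922292-189922541 (minus strand) for Smyd2. Capitals mark matches, on either strand, to GGGCGG (the GC box), CCAAT (the CCAAT box), TTCCCGC (an E2F core), TTTGAA (the CHR element) and ACAAAG (a SOX core).
Kdm1a: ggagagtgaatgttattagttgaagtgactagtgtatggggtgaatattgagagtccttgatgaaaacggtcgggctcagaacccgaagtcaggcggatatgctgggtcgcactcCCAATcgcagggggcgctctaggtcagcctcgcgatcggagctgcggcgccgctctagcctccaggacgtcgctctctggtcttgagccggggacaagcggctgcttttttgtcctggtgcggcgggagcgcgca
Kdm5b: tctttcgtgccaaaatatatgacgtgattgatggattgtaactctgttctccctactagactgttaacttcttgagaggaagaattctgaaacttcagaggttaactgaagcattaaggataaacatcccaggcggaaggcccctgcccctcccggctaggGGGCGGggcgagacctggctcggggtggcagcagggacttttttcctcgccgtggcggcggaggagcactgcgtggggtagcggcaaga
Suv39h2: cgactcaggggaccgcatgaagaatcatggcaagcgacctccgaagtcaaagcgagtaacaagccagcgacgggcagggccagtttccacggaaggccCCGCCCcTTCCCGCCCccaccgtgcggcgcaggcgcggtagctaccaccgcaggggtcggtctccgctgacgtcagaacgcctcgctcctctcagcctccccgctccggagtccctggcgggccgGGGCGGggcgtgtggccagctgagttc
Smyd2: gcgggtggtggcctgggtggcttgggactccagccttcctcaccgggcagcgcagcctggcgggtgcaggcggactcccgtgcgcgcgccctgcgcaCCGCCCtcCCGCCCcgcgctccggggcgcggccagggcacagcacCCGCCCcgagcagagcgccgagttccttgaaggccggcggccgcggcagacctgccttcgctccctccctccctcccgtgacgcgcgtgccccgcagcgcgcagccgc
These windows held 21 CpG dinucleotides in Kdm1a, 13 in Kdm5b, 27 in Suv39h2 and 34 in Smyd2. Over the 43 windows of the 32 members with an entry the median was 21 CpG and 65.6% G or C, against 6 CpG and 52.4% in all 32851 windows. Kdm1a held 1 CCAAT box, Kdm5b 1 GC box, Smyd2 3 GC boxes, and Suv39h2 3 GC boxes, 1 of them overlapping its E2F core. A GC box was present in 72.1% of member windows and 32.7% of all windows. The shares were 39.5% and 33.8% for CCAAT, 4.65% and 3.82% for the E2F core, 4.65% and 15.99% for TTTGAA, and 23.3% and 16.5% for ACAAAG. A match is a run of letters and not evidence that a factor binds there.

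Of the 7 H3K4 methyltransferases, none rose or fell. Kmt2a, Kmt2b, Kmt2c and Kmt2d, the large enzymes of the MLL complexes at promoters and enhancers, had log2 fold changes of -0.03, -0.06, -0.07 and 0.01. Setd1a and Setd1b, which carry out much of the H3K4 trimethylation at promoters, had values of -0.08 and 0.04, and Setd7, a monomethyltransferase that also acts on non-histone proteins, had -0.03. All but Setd7 had overlapping groups. The 95% interval of the log2 fold change was -0.15 to 0.0017 for Setd1a and -0.24 to 0.11 for Kmt2c, the widest of the 7. Kmt2a, Kmt2d, Setd1a, Setd1b and Setd7 were dim, with Control means of 6.41, 5.97, 6.33, 6.19 and 6.05. Each was under 1 log2 unit above the level set by the offset, which understates their changes and intervals. By the authors' processed values they had 94.7%, 104%, 85.9%, 110% and 93.8% of the Control level. Kmt2e, a relative that binds methylated H3K4 and lacks methyltransferase activity, had a value of -0.12 (limma adjusted p = 0.387).

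The H3K9 methyltransferases included 1 of 5 tested members that fell. Suv39h2, which trimethylates H3K9 in pericentric heterochromatin, read 7.14, 7.19 and 7.31 in Chd7 KD, against 7.68, 7.58 and 7.55 in Control. Each Chd7 KD array was below each Control array. The means were 7.21 ± 0.086 in Chd7 KD and 7.61 ± 0.0655 in Control (SD, n = 3 each), a log2 fold change of -0.39 (SE 0.064, limma adjusted p = 0.00687) or 76.1% of the Control level, and 65.9% by the authors' processed values. Ehmt1 (GLP) and Ehmt2 (G9a) form the heterodimer that writes H3K9 mono- and dimethylation in euchromatin, and their log2 fold changes had opposite signs, -0.22 for Ehmt1 (limma adjusted p = 0.186) and 0.19 for Ehmt2 (0.343). Both had overlapping groups and neither passed. Setdb1, the H3K9 methyltransferase recruited by KRAB zinc finger proteins through Trim28, had a value of 0.04, and Prdm2 (RIZ1), a PR-domain enzyme, had -0.03.

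Among the H3K9 demethylases, 1 of 8 tested members fell. Kdm4b, a JmjC enzyme that acts on trimethylated H3K9 and H3K36, read 6.30, 6.30 and 6.31 in Chd7 KD, against 6.47, 6.45 and 6.39 in Control. The groups did not overlap, and all 6 values were dim, under 1 log2 unit above the level set by the offset. The means were 6.30 ± 0.00858 in Chd7 KD and 6.43 ± 0.0415 in Control (SD, n = 3 each), a log2 fold change of -0.13 (SE 0.0346, limma adjusted p = 0.0467), or 91.3% of the Control level on this scale and 77.2% by the authors' processed values. The call held without Control replicate 3 (0.0408) and was lost when any of the other 5 arrays was left out (0.0972 to 0.143) and without both arrays numbered 1 (0.189). It was also lost with median scaling (0.0635), in the authors' values (0.0565) and without the filter on dim probes (0.0534).

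The paralogues Kdm4a and Kdm4c had log2 fold changes of -0.07 and -0.06 and did not pass. Kdm3a and Kdm3b, which act on mono- and dimethylated H3K9, had -0.10 and -0.03. Phf2, Phf8 and Kdm7a, plant-homeodomain JmjC proteins, had -0.03, -0.02 and 0.09. Kdm7a had the only positive value of the 8, and its Chd7 KD arrays (6.967, 6.894 and 6.967) all lay above its Control arrays (6.88, 6.893 and 6.78), without passing (limma adjusted p = 0.319). The H3K27 demethylases Kdm6a (UTX), which is X-linked and a subunit of the Kmt2c and Kmt2d complexes, and Kdm6b (JMJD3) had values of -0.14 (limma adjusted p = 0.192) and -0.07 (0.536).

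Of the 5 tested H3K36 methyltransferases, Smyd2 fell. Smyd2, which has been shown to methylate H3K36 and also p53 and other non-histone proteins, read 8.80, 8.71 and 8.81 in Chd7 KD, against 9.21, 9.02 and 9.22 in Control. The highest Chd7 KD array lay below the lowest Control array, and replicate 2 was the lowest array in each group. The means were 8.77 ± 0.0556 in Chd7 KD and 9.15 ± 0.111 in Control (SD, n = 3 each), a log2 fold change of -0.38 (SE 0.0767, limma adjusted p = 0.0173), or 77.0% of the Control level. The call was lost without Chd7 KD replicate 1 (limma adjusted p = 0.0543), Chd7 KD replicate 2 (0.0737), Control replicate 3 (0.057) or both arrays numbered 1 (0.0746).

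Nsd2, a dimethyltransferase of H3K36, had a log2 fold change of -0.21 without passing (limma adjusted p = 0.0817), with 6.85, 7.05 and 7.05 in Chd7 KD below 7.25, 7.19 and 7.15 in Control. Setd2, the enzyme of H3K36 trimethylation in transcribed gene bodies, had -0.10 (0.307). Nsd1 and Nsd3 had -0.03 and 0.01.

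Both JmjC enzymes with a CXXC zinc finger, Kdm2a and Kdm2b, read lower in Chd7 KD, and Kdm2a passed. Kdm2a, which removes methyl groups from H3K36 at CpG islands, read 8.07, 8.08 and 8.04 in Chd7 KD, against 8.59, 8.42 and 8.40 in Control. The groups did not overlap, and the Chd7 KD arrays lay within a narrow range. The means were 8.07 ± 0.0206 in Chd7 KD and 8.47 ± 0.105 in Control (SD, n = 3 each), a log2 fold change of -0.41 (SE 0.0693, limma adjusted p = 0.00823), or 75.4% of the Control level. The authors' processed values gave 69.1%.

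Kdm2b, which also brings a variant Polycomb complex to CpG islands, read 6.88, 6.93 and 7.01 in Chd7 KD, against 7.16, 7.11 and 7.11 in Control. These arrays did not overlap, and the log2 fold change was -0.19 (SE 0.0523, limma adjusted p = 0.0537). With the replicate number as a block the adjusted p was 0.0445. Kdm2b also passed in the authors' values and without the variance trend, and did not pass with median scaling or when any 1 array was left out. Kdm8 (JMJD5), the remaining JmjC member of the H3K36 group, had a value of -0.03.

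Dot1l, the H3K79 methyltransferase and the only member of its kind, read 7.90, 7.63 and 7.85 in Chd7 KD, against 7.57, 7.42 and 7.58 in Control. Every Chd7 KD array was above every Control array, and replicate 2 was the lowest in each group. The means were 7.79 ± 0.145 in Chd7 KD and 7.53 ± 0.0892 in Control (SD, n = 3 each), a log2 fold change of 0.27 (SE 0.083, limma adjusted p = 0.0778) that did not pass. With the replicate number as a block the adjusted p was 0.0144, and without Chd7 KD replicate 2 it was 0.041. It was 0.0961 to 0.232 when any of the other 5 arrays was left out, 0.189 in the authors' values and 0.128 with the set of arrays that shared a scanner gain slope as a block.

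The H4K20 enzymes Kmt5a, which writes the monomethyl mark, and Kmt5b and Kmt5c, which add further methyl groups, had log2 fold changes of -0.03, -0.07 and -0.10, and none passed. Kmt5c had the smallest adjusted p of the 3 (0.144 by limma), and its arrays did not overlap. The SMYD proteins Smyd3 and Smyd5 had values of -0.01 and 0.06.

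**Figure D2:**
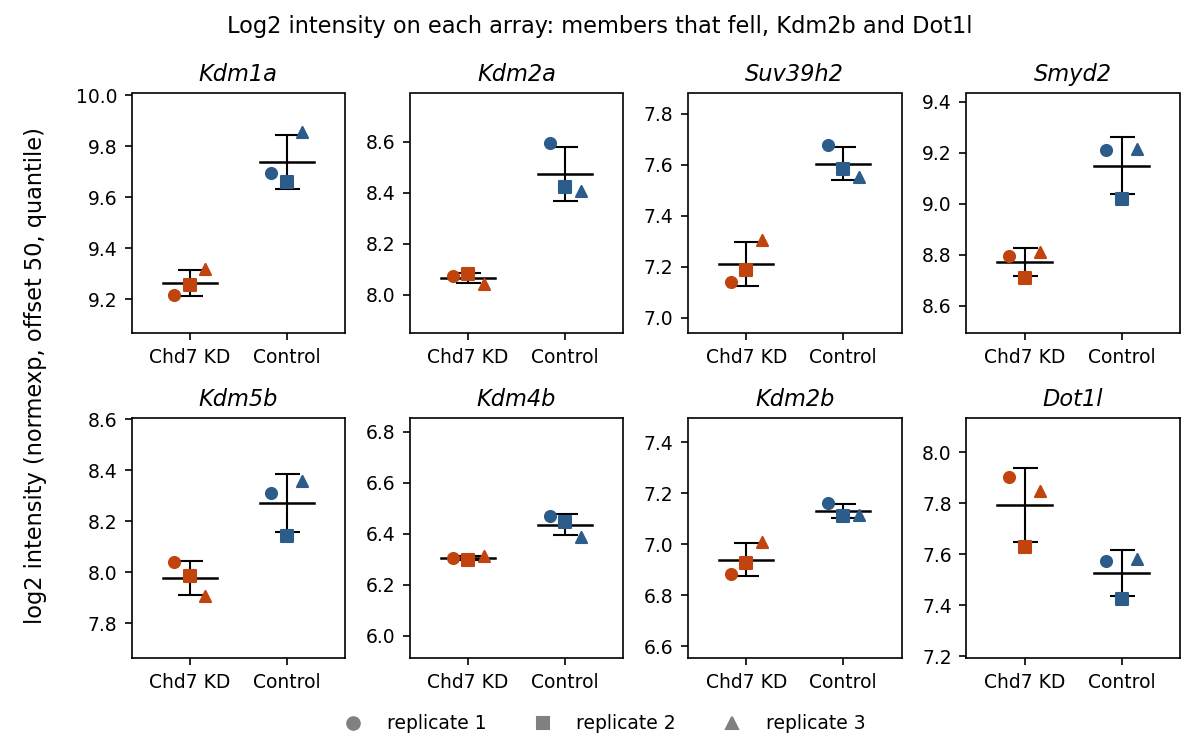
Log2 intensity (vertical axis) of the 6 members that fell, Kdm2b and Dot1l on each Chd7 KD and Control array (horizontal axis); symbols are replicates 1 to 3, and bars are the mean ± SD of 3 arrays. The groups overlap in none of the 8 panels, and Dot1l alone is higher in Chd7 KD.

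**Figure D3:**
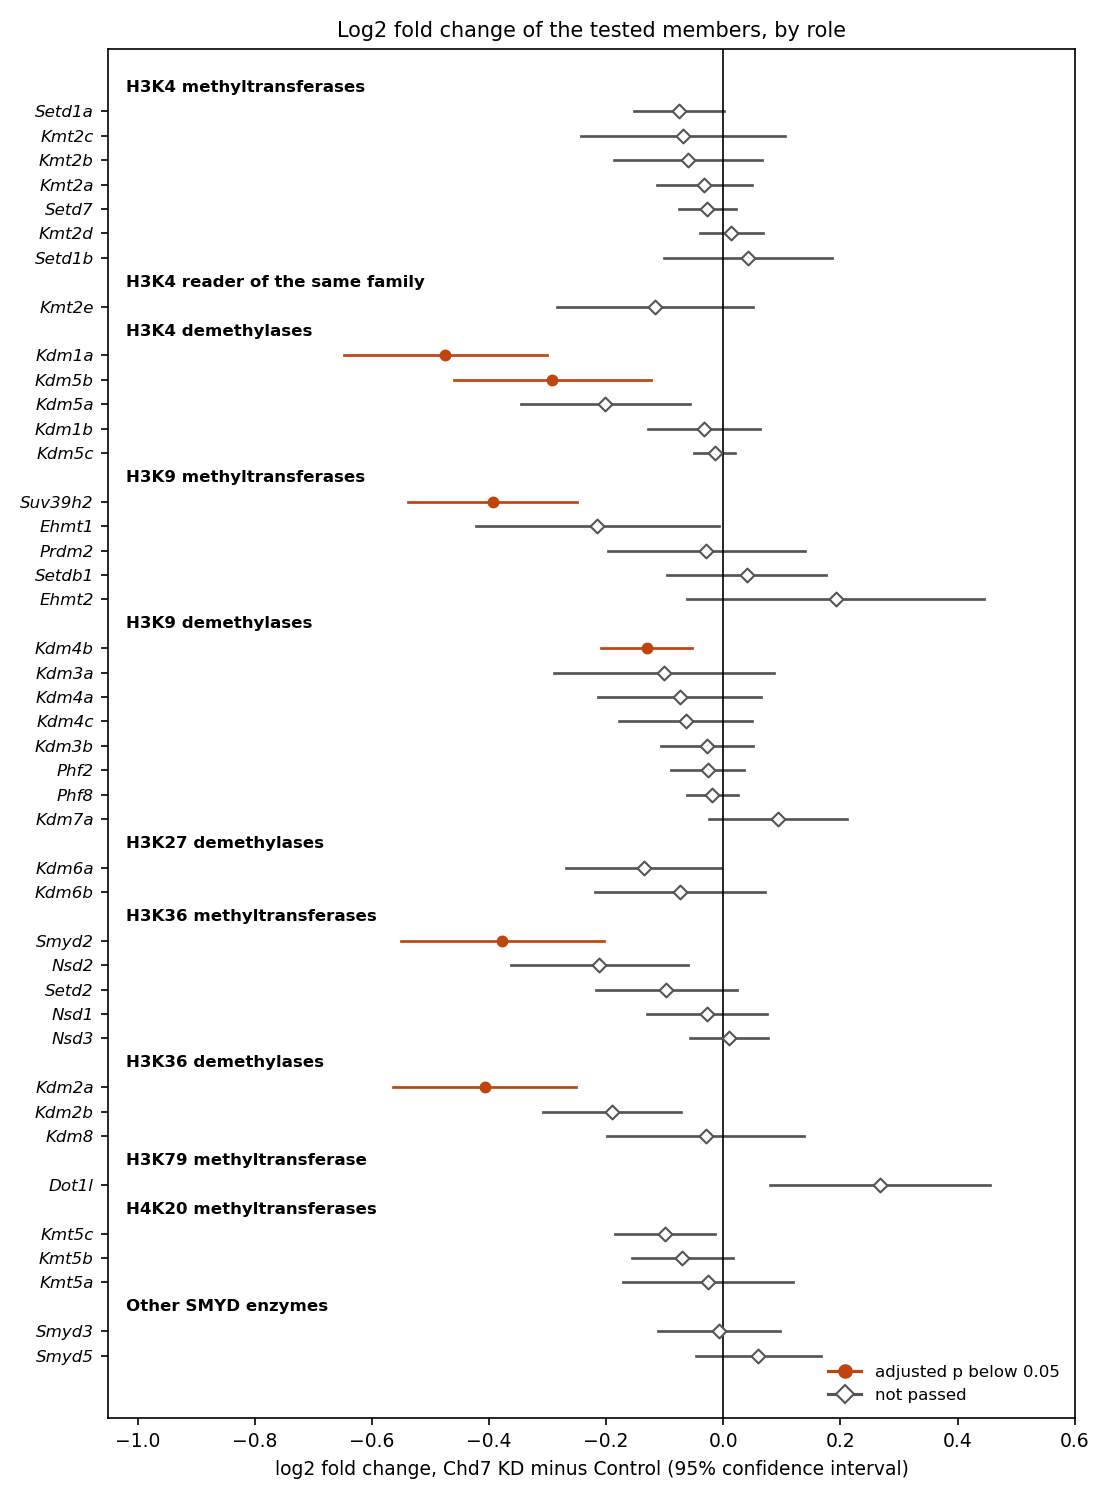
Log2 fold change (Chd7 KD minus Control, horizontal axis) with its 95% confidence interval for the 42 tested members. Rows are grouped by role, mostly by residue, with separate groups for Kmt2e and for Smyd3 and Smyd5. Filled circles passed and open diamonds did not. The 6 filled circles run from -0.47 for Kdm1a to -0.13 for Kdm4b.

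A second probe was measured for Setd1b, Prdm2, Kdm3b and Nsd1, and probes of a gene are not replicates. The log2 fold changes of these second probes were -0.04, 0.01, -0.0048 and -0.11, and none passed over all probes, the smallest limma adjusted p being 0.0723 for Nsd1. The sign differed from that of the brighter probe for Setd1b and Prdm2. The second Kmt2a probe was above the limit on 0 of 3 Chd7 KD arrays and 1 of 3 Control arrays. Each of the 6 members that fell had 1 probe.

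The scanner's gain slopes formed 2 sets of arrays, Chd7 KD replicate 2 with Control replicates 1 and 2 (set 1), and Chd7 KD replicates 1 and 3 with Control replicate 3 (set 2). Within set 1 and set 2, the log2 fold change was -0.42 and -0.59 for Kdm1a, -0.43 and -0.35 for Kdm2a, -0.44 and -0.33 for Suv39h2, and -0.41 and -0.41 for Smyd2. It was -0.24 and -0.38 for Kdm5b and -0.16 and -0.08 for Kdm4b. For Dot1l it was 0.13 and 0.29 (limma adjusted p = 0.709 and 0.209). Since the groups of these 7 members do not overlap, the sign within a set was fixed by the arrays and shows nothing further. No member passed within a set, where 1 array stood alone and was assumed to vary like the others (limma adjusted p of the 6 that fell from 0.106 to 0.521). With the set as a block, Kdm1a (limma adjusted p = 0.0116), Suv39h2 (0.0197), Smyd2 (0.0227) and Kdm2a (0.0229) passed, and Kdm5b (0.0598) and Kdm4b (0.101) did not.

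**Figure D4:**
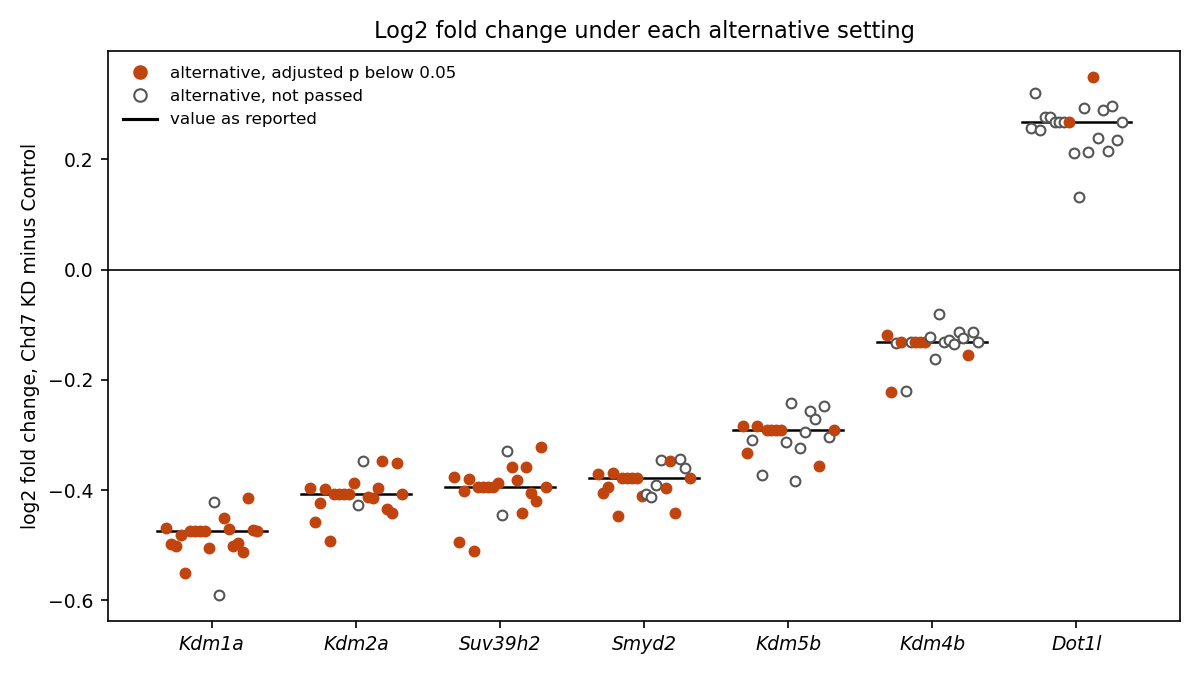
Log2 fold change (vertical axis, Chd7 KD minus Control) of the 6 members that fell and of Dot1l (horizontal axis) under each of 20 alternative settings, as points, with the value as reported as a black line; filled points passed. The points run from -0.59 to -0.42 for Kdm1a and from 0.13 to 0.35 for Dot1l, settings that change only the test repeat the reported value, and Kdm1a, Kdm2a and Suv39h2 have the most filled points.

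Many of these enzymes act within complexes, and the known partners were read from the same fit. In the LSD1-CoREST complex, Kdm1a is joined to histone deacetylases by a CoREST scaffold. Of 8 subunits of this complex, 7 were tested, 1 fell and 1 rose, where 5.13% of all genes tested fell and 4.53% rose. With so few subunits, these counts give no result about the complex as a whole. The scaffold Rcor2 read 8.81, 8.85 and 8.67 in Chd7 KD, against 9.43, 9.46 and 9.38 in Control. Its groups were far apart relative to their spread, with means of 8.78 ± 0.097 in Chd7 KD and 9.42 ± 0.0415 in Control (SD, n = 3 each) and a log2 fold change of -0.65 (SE 0.073, limma adjusted p = 0.00176), or 63.9% of the Control level. Rcor2 is the CoREST paralogue known for its expression in neural progenitors and stem cells.

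Rcor1, the founding CoREST scaffold, read 6.18, 6.13 and 6.12 in Chd7 KD, against 6.039, 6.048 and 6.003 in Control, a rise of 0.11 on the log2 scale (SE 0.0271, limma adjusted p = 0.0346) at a dim signal. That call was lost when each of the 6 arrays was left out in turn (adjusted p from 0.0581 to 0.117), without both arrays numbered 1 (0.14), with median scaling (0.0695) and in the authors' values (0.0995). Rcor3 had a log2 fold change of 0.07, the deacetylases Hdac1 and Hdac2 had 0.09 and -0.17, and the subunits Phf21a and Hmg20b had -0.04 and -0.08. None of these 5 passed, though the groups of Hdac2 and Phf21a did not overlap, as was so for 29.9% of all genes.

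**Figure D5:**
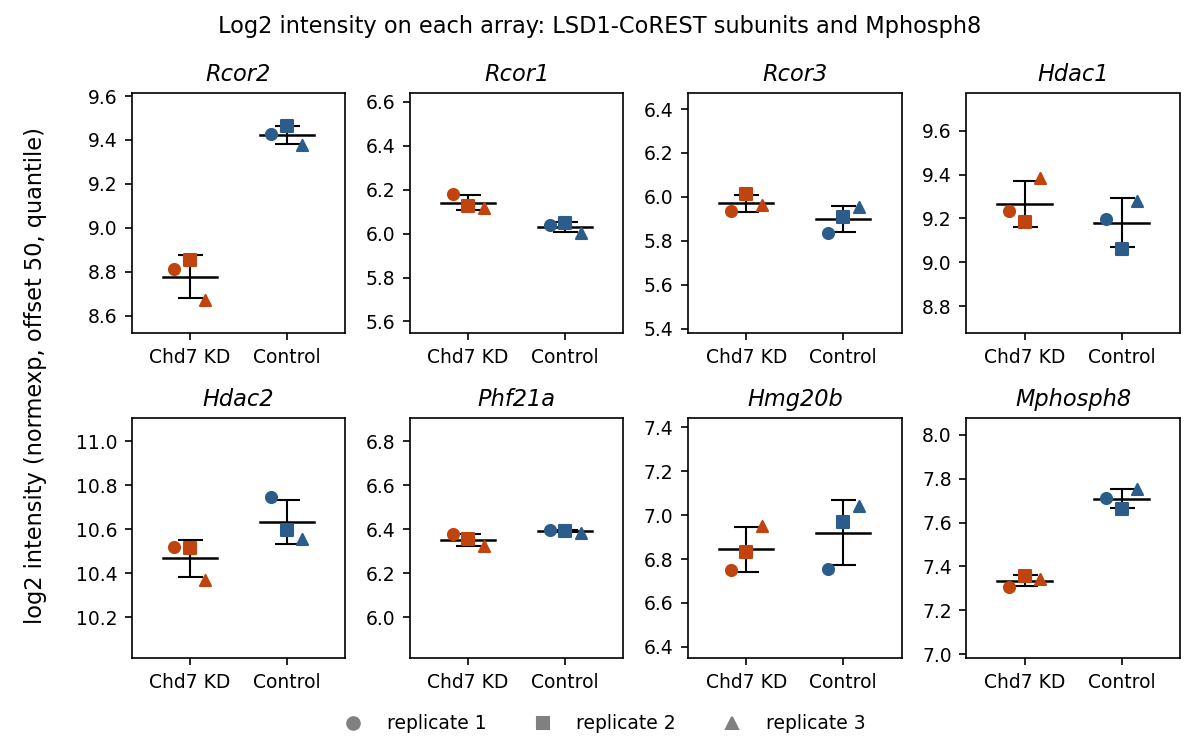
Log2 intensity (vertical axis) of 7 LSD1-CoREST subunits and Mphosph8 on each Chd7 KD and Control array (horizontal axis); symbols are replicates 1 to 3, and bars are the mean ± SD of 3 arrays. Rcor2 and Mphosph8, which fell, are lower on all 3 Chd7 KD arrays, at 8.78 and 7.34 on average, against 9.42 and 7.71 in Control. Hdac2 and Phf21a are also lower on all 3 Chd7 KD arrays without passing, and Rcor1 is higher on all 3.

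Of 10 readers and cofactors of H3K9 methylation, 1 fell, where 5.13% of all genes tested did. At an unadjusted limma p under 0.05, 1 was lower and 0 higher, where 12.7% of all genes were lower and 12% higher. Mphosph8 (MPP8), the chromodomain subunit of the HUSH silencing complex that binds methylated H3K9, read 7.31, 7.36 and 7.34 in Chd7 KD, against 7.71, 7.66 and 7.75 in Control. There was no overlap, and the means were 7.34 ± 0.0266 in Chd7 KD and 7.71 ± 0.0441 in Control (SD, n = 3 each). The log2 fold change was -0.37 (SE 0.0536, limma adjusted p = 0.00435), or 77.2% of the Control level. The heterochromatin proteins Cbx1, Cbx3 and Cbx5 had values of 0.10, -0.18 and -0.04 and did not pass, and neither did Trim28, the KRAB co-repressor, at -0.01.

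None of the 12 subunits of the COMPASS and MLL complexes passed, and 4 were lower and 0 higher at an unadjusted limma p under 0.05, where 12.7% of all genes were lower and 12% higher. The core subunits Wdr5, Ash2l, Rbbp5 and Dpy30 had log2 fold changes of 0.04, 0.06, 0.04 and -0.18. Men1 (menin), which tethers Kmt2a and Kmt2b to chromatin, had -0.19 (limma adjusted p = 0.113, and 0.0433 with the replicate number as a block). Of 6 partners of Dot1l and the MLL fusions, none passed, and Aff1 and Aff4, scaffolds of the super elongation complex, had 0.18 (limma adjusted p = 0.0515, and 0.0183 with the block) and 0.11 (0.0864). The 4 MLLT genes of this list, Mllt1, Mllt3, Mllt6 and Mllt10, had negative values down to -0.08.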

How the data were processed

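Total RNA was converted to amino allyl RNA and labelled with Cy5 for TORAY arrays, per the labels' protocols. The deposited spot intensity was read at 635 nm and 3 gains, per the file headers. A second deposited table holds the authors' processed intensity values, scaled to a median of 25 per array, and it was used as an alternative. That scaling was worked out from the values alone. For tests in these values 16 was added before the logarithm, and percentages of the Control level were taken without it.

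Spot intensities were corrected with normexp (offset 50), quantile normalized and averaged per probe in limma 3.58.1 (R 4.3.3, statmod 1.5.0). A probe was tested if its signal exceeded the blank spots' mean by 2 SD on at least 3 of 6 arrays. The brightest probe stood for a gene. Groups were compared with lmFit and eBayes (trend, two-sided) and Benjamini-Hochberg adjustment over 17390 genes. The procedure was also run on simulated data with independent noise on each array and planted changes larger than those of the members. That run cannot tell how well changes as small as those of the members are found. Figures were drawn with matplotlib 3.10.9. The median raw signal was 83.4 to 89.4 per array, against a blank mean of 58.9 to 61.9.

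The members, lists and tests were chosen with earlier results of these data known. Named in full were Chd7, members and partners that passed, and members without overlap and a log2 fold change of at least 0.25 in size. Others are given by value within their role, chosen after their values were seen. Within groups, the residuals of same-numbered arrays had correlations of 0.36, 0.38 and 0.23, and each array matched its own number best. Residuals cancel out within each small group, so some match between the groups arises in any case. These correlations therefore cannot show whether the numbers pair the arrays. Such a pairing is not stated in the labels and was not tested, and the results with the replicate number as a block assume it. The alternatives were other background corrections, scalings, filters, variance models and thresholds, the authors' values, the replicate block, the gain sets and leaving out each array.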

Additional observations from a re-analysis of the deposited data

How the results depend on the processing

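Since the groups of the 6 members that fell do not overlap, leaving out or splitting arrays could not turn their signs. Over the alternatives the log2 fold change ran from -0.59 to -0.42 for Kdm1a and from -0.22 to -0.08 for Kdm4b. The Kdm4b call was also lost when adjusted over all probes (limma adjusted p = 0.0501), and the Rcor1 call without the variance trend (0.0632) and with the gain set as a block. The cause of the calls lost was not tested. Members that fell numbered 4 with median scaling (9.52%, against 4.08% of all genes tested) and 5 in the authors' values (11.9%, against 4.6%). There were 7 without the variance trend (16.7%, against 5.81%) and 7 with the replicate number as a block (16.7%, against 7.33%). They were 3 to 5 when 1 array was left out (7.14% to 11.9%, against 2.28% to 4.43% of all genes). Without both arrays numbered 1 they were 3 (7.14%, against 2.42%), and with the gain set as a block 4 (9.52%, against 3.59%). At an adjusted p below 0.1 they were 9 (21.4%, against 8.09%). Members that rose were 0 to 1 when 1 array was left out (0% to 2.38%, against 2.05% to 3.94% of all genes). There was 1 with the replicate block (2.38%, against 7.33%) and 1 at an adjusted p below 0.1 (2.38%, against 7.37%).

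Pairing arrays by replicate number as a block changed, the calls of Dot1l, Kdm2b, Men1, Aff1 and 6 cell type markers and no other call among the members, partners and markers, and it gave 1275 genes that rose and 1275 that fell, against 788 and 892 without it. Genes that rose were 525 with median scaling, 389 in the authors' values, 28 and 10 within the gain sets, 1281 at an adjusted p below 0.1, 357 to 685 when 1 array was left out and 380 without both arrays numbered 1. Genes that fell were 19 and 30 within the gain sets, 1407 at an adjusted p below 0.1, 396 to 771 when 1 array was left out and 421 without both arrays numbered 1. The share of calls that were higher was 46.9%, and 33.4% in the authors' values. Dim signals limit the dimmest members, whose differences the offset shrinks.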

Other observations

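Other proteins of the SET and JmjC families, outside the members, were read from the same fit. Of 18 tested, 1 fell and none rose by limma, where 5.13% of all genes fell and 4.53% rose. At an unadjusted limma p under 0.05, 0 were higher and 3 lower, where 12% of all genes were higher and 12.7% lower. Ezh2, the H3K27 methyltransferase of Polycomb repressive complex 2, read 10.01, 9.99 and 10.02 in Chd7 KD, against 10.34, 10.30 and 10.41 in Control. The groups did not overlap, and the log2 fold change was -0.34 (SE 0.0674, limma adjusted p = 0.015). That call was lost with median scaling (adjusted p = 0.0895), without Chd7 KD replicate 1 (0.0511) or 2 (0.0637) and without both arrays numbered 1 (0.054). Its paralogue Ezh1 had 0.03, and Jmjd1c, a relative of the Kdm3 enzymes, had -0.13 (limma adjusted p = 0.125).

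Some genes of these families and of the partner lists had a wide spread within a group. Prdm16, a PR-domain transcription factor of neural progenitors, read 6.80, 7.62 and 7.64 in Chd7 KD and 6.80, 7.74 and 7.48 in Control, so both arrays numbered 1 were low. Ash2l, a core COMPASS subunit, read 9.55, 9.66 and 9.68 in Chd7 KD and 9.11, 9.75 and 9.85 in Control, with the array numbered 1 the lowest of each group. Cbx3, a heterochromatin protein, read 10.26, 10.77 and 10.99 in Chd7 KD and 10.73, 10.65 and 11.17 in Control. These 3 genes were chosen after their values were seen.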
